A study of Mus musculus with 12 samples.

Results

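Small noncoding RNAs made up 128 of the 13951 rows of the deposited expression table. They were chosen by biotype in the GENCODE M21 annotation of the mouse genome (GRCm38): 44 small nucleolar RNAs (snoRNAs), 5 small Cajal body RNAs (scaRNAs), 35 spliceosomal small nuclear RNAs (snRNAs) and 44 rows of the class misc_RNA. The last class holds 7SL and 7SK RNA, a vault RNA and conserved stretches of long noncoding RNAs. The libraries were made from polyadenylated RNA of right hippocampus, ventral part, of C57BL/6J mice aged 12 to 16 weeks, snap frozen, all with lane number 7. The 4 groups, of 3 libraries each, were females and males of the wild type (WT) and females and males labelled Angelman syndrome (AS). This neurodevelopmental disorder follows loss of the maternal UBE3A gene, and the labels do not state which mutation the AS mice carried. No treatment was given in the labels, and the series title concerns sensory phenotypes that depend on sex.

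C/D box snoRNAs guide the methylation of ribose in ribosomal RNA, and H/ACA box snoRNAs guide the change of uridine to pseudouridine. scaRNAs do the same for snRNAs in Cajal bodies. Most mammalian snoRNAs are cut from introns of host genes, many of which encode ribosomal proteins or translation factors. U1 and U2 snRNAs recognise the 5′ splice site and the branch point, 7SL RNA is the core of the signal recognition particle, and 7SK RNA holds the elongation factor P-TEFb inactive. The mature forms of most of these RNAs carry no poly(A) tail.

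Values are log2(abundance + 1), where the abundance is the length-scaled estimate of the RSEM program that the authors deposited on a log scale. The log base was not stated and was read as e. At base 2 each log2 value and difference would be 0.693 times as large. Read depth is unknown, so no counting intervals are given. The hippocampal neuron list was high throughout, with 15 of 16 rows above the limit defined below in all 12 libraries. Choroid plexus genes averaged 2.82 to 4.81 in WT female replicates 1 and 2, AS female replicate 2 and AS male replicate 2, and 1.41 to 1.82 elsewhere. Xist was at 0.35 in WT female replicate 1, and between 6.00 and 6.45 in the other females, so this library went against its label for that gene.

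The sequences below show which kinds of small RNA the table held. They were read from the GENCODE M21 transcripts (GRCm38), 5′ to 3′. Capitals mark the ACA box of the H/ACA snoRNAs, the C box (TGATGA) and D box (CTGA) of Snord15b, and the Sm protein site of U1. The first 2 are a pair of near copies, which differed at 15 of 139 positions (89.2% identity) and had different values.
Snora43: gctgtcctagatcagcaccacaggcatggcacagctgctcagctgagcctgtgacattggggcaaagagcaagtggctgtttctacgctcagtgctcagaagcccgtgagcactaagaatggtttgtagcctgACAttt
Gm22504: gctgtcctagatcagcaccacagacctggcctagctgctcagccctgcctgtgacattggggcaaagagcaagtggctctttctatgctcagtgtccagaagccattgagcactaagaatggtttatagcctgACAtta
Snora21: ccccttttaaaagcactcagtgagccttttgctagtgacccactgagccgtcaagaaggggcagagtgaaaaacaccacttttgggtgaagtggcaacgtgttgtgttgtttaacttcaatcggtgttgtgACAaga
Snora64: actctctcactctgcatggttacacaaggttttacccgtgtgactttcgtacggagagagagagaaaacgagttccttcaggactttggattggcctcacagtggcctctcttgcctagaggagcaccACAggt
Snord15b: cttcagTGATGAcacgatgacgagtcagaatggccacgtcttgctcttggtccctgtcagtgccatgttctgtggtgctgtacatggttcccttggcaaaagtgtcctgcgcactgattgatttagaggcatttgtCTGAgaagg
Rnu1a1: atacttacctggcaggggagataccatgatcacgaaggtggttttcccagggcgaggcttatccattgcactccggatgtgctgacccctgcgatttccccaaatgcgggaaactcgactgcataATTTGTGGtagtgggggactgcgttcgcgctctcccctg
Gm27640: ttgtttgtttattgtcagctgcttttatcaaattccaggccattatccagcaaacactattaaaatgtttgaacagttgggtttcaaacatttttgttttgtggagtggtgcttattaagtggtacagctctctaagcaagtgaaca
Snora43 lies at chr2:26637847-26637985 on the minus strand, where no protein-coding or long noncoding gene of GENCODE M21 on that strand spans it. Gm22504 lies at chr7:105642338-105642476 (minus). Snora21 lies in an intron of Rpl23 at chr11:97781639-97781775 (minus). Snora64 lies at chr17:24720772-24720905 (plus) and Snord15b at chr7:99479563-99479707 (minus), in exons of annotated transcripts of Rps2 and Rps3. These 3 host genes encode ribosomal proteins. Rnu1a1, a U1 gene, lies at chr11:87422867-87423030 (plus). Gm27640, at chr11:3647179-3647325 (minus), is a stretch of an exon of the long noncoding RNA Tug1.

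The snoRNA, scaRNA and snRNA rows were longer than is usual for their classes, and the misc_RNA rows were not. snoRNA rows were 126 to 271 bases long, with a median of 138, whereas the 1507 annotated snoRNAs had a median of 127. The scaRNA rows were 165 to 343 bases long (median 265, annotated 136) and the snRNA rows 133 to 193 (median 165, annotated 107). The misc_RNA rows were 128 to 331 bases long, with a median of 211 against 265 for the annotated class. No member was shorter than 126 bases, and 815 of the 1507 annotated snoRNAs reach that length. Of the 44 snoRNA rows 14 were named H/ACA snoRNAs, 2 were named C/D box snoRNAs (Snord15b and Snord22) and 28 had names of predicted genes. An ACA 3 bases before the 3′ end, on the transcript strand, was present in 29 of the 44 (65.9%), in 13 of the 14 named H/ACA members and in 16 of the 28 predicted ones. It was present in 18.3% of annotated snoRNAs and in 1.13% of the first 140 bases of protein-coding transcripts. TGATGA in the first 30 bases together with CTGA in the last 15 was present in 4 of the 44 and in 20.4% of annotated snoRNAs. ATTTNTGG, searched for the Sm site, was present in all 12 U1-like members, in 21 of the 35 snRNA rows, in 33.1% of annotated snRNAs of at least 126 bases and in 0.755% of the first 164 bases of protein-coding transcripts. The interval from Ube3a to Snrpn on chromosome 7 (59228750 to 60140219) holds 210 annotated snoRNAs of 67 to 94 bases, and none was a row of the table.

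Rows of identical sequence showed where a value could be read. The U1 sequence printed for Rnu1a1 was shared by 7 rows, Rnu1a1 and 6 with predicted names. In WT female replicate 3 all 7 stood at 3.84, in AS female replicate 3 at 3.10 and in WT male replicate 3 at 3.45. In 4 more libraries they were also alike, at 0.83 to 1.30, and the largest range among the copies was 0.012 in these 7 libraries. Copies are called alike here where they lie within 0.05 log2 units, and scattered otherwise. In the remaining 5 libraries the same copies were scattered between 0.15 and 1.57. The 4 identical U2 rows were alike in 7 libraries and scattered in 5, and Gm22614 and Gm25890, which are identical snRNA rows, were alike in 5 and scattered in 7, in 2 of which they differed by only 0.095 and 0.131. The highest scattered value of any copy was 1.58, an abundance of 2.00. It is called the limit here, because at or under it a value did not always follow the sequence. Every row of the table, member or not, exceeded it in at least 1 library (lowest maximum 1.59).

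**Figure D1:**
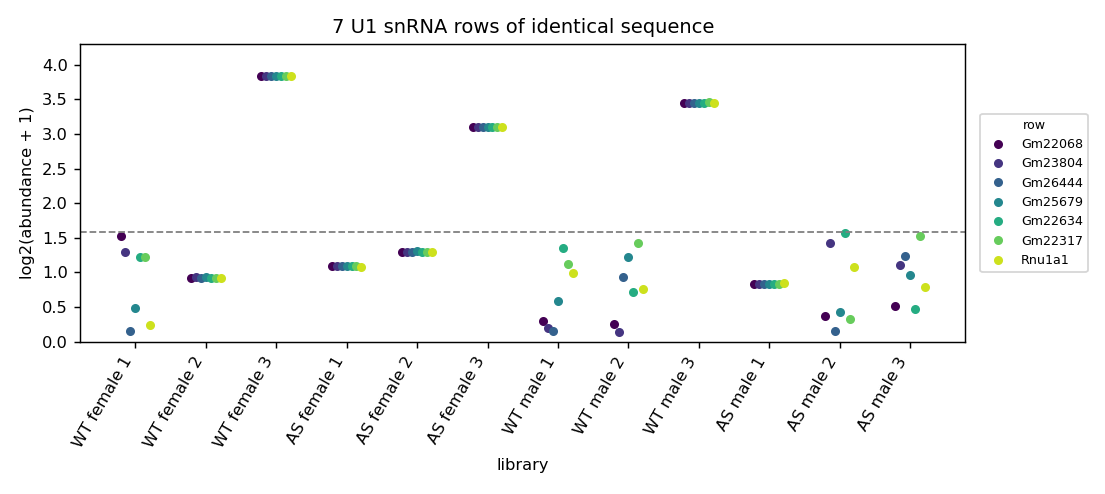
Level, in log2(abundance + 1), of the 7 U1 rows of identical sequence in each of the 12 libraries, with 1 point per row and the limit of 1.58 dashed. The copies coincide in 7 libraries, among them the 3 at 3.10 to 3.84, and are scattered under the limit in the other 5.

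Most members rose above the limit in few libraries. Of the 1536 member values 382 (24.9%) were above it, against 90.9% over all rows. Only Snora43 and Gm25082 were above it in all 12 libraries, 19 members were in 6 or more, and 78 (60.9%) were in 1 or 2. Over all rows 83.9% were above it in all 12 libraries and 5.63% in 1 or 2. Of the 30 members above it in exactly 2 libraries, 7 had both in 1 group and 23 in different groups. The median level over the 12 libraries was 1.21 for members (0.66 to 4.02) and 3.75 for all rows.

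Where a short member was above the limit in few libraries, its value tended to follow its length. Members 126 to 132 bases long stood at medians of 5.60 to 6.28 and the 6 members of 137 bases at a median of 4.96 (11 values, 4.53 to 5.10). The 4 members of 144 bases had a median of 4.29 (9 values, 1.59 to 4.43), Snord15b at 145 bases stood at 4.29 and 1 member of 146 bases at 4.13. These medians and ranges take in all members of a length, also those above the limit in many libraries. Several lengths broke this order, most of them holding such a member. At 138 bases the 14 values ran from 3.46 to 6.49, at 139 bases, the length of Snora43, the median was 2.96 (2.63 to 4.66), at 141 bases 1 value reached 6.25, at 143 bases the median was 3.82 (1.90 to 4.57) and at 147 bases, Gm27640 alone, 4.63 (1.91 to 5.59). Snora21 and Snora52 are both 137 bases long and lie in the ribosomal protein genes Rpl23 and Rplp2. Snora21 was above the limit in WT male replicates 1 (5.02) and 3 (5.10), and Snora52 in WT female replicate 3 alone (4.96). Across the 78 members above the limit in 1 or 2 libraries, level and length had a Pearson's r of -0.80 and a Spearman's rho of -0.97. Up to 150 bases (33 members) r was -0.95. These correlations are across genes that share libraries, and genes are not independent replicates. The abundance is itself scaled by length, and the members were picked for being above the limit in few libraries. The correlations are therefore partly built into the measure and the choice, and are no test of a relation with length.

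**Figure D2:**
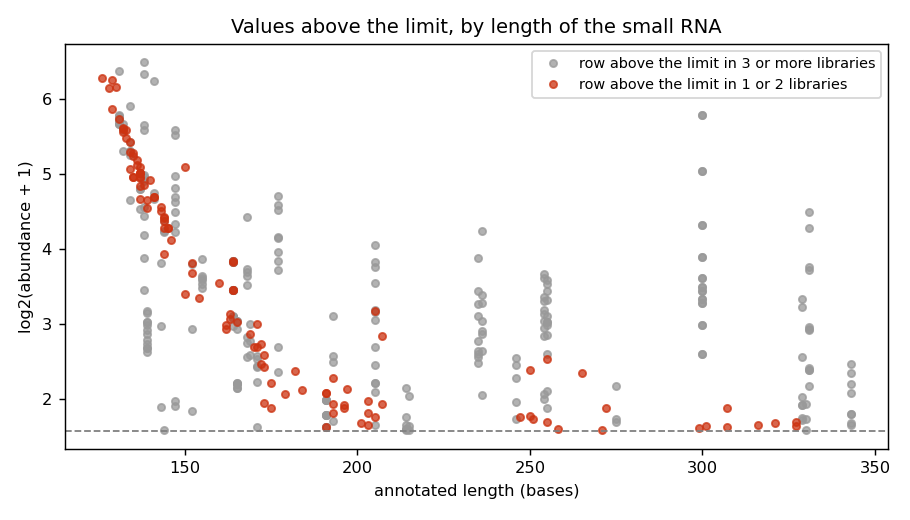
Every member value above the limit, in log2(abundance + 1), against the annotated length in bases, with the limit dashed. Members above the limit in 1 or 2 libraries (red) mostly decline from 6.28 at 126 bases, with exceptions such as Gm27627 (150 bases, 5.10 and 3.40), Snora73a (205 bases, 1.76 and 3.18) and Gm27905 (207 bases, 1.94 and 2.84). Members above it in more libraries (grey) scatter widely.

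Members varied far more within groups than other rows. Their median within-group SD was 1.03 log2 units (0.16 to 2.73), against 0.139 over all rows. By class it was 1.26 for named H/ACA snoRNAs, 1.19 for predicted snoRNAs, 0.99 for snRNAs, 0.68 for misc_RNA rows and 0.54 for scaRNAs. Snora43, Gm25706, Gm26316, Scarna6, Gm22389 and Gm22596 varied least, and of these only Snora43 was above the limit in more than 1 library. Gm28030, Snora64, Gm24265, Gm26447, Gm24455 and Gm27761 varied most.

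Other rows of the same length had a similar spread. From 126 to under 150 bases the median within-group SD was 1.48 for 44 members and 1.26 for 13 other rows. From 150 to under 200 bases it was 0.89 for 49 members and 0.84 for 19 others, and from 200 to under 350 bases 0.57 for 35 members and 0.50 for 94 others. It was 0.134 for rows of at least 1000 bases. Among rows of like level the gap was small at the lowest levels and larger above them. At a mean under 1 the median SD was 0.60 for 27 members and 0.48 for 153 other rows, at 1 to 1.5 it was 1.11 for 63 and 0.29 for 859, and at 2 to 3 it was 1.31 for 14 and 0.171 for 2453.

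**Figure D3:**
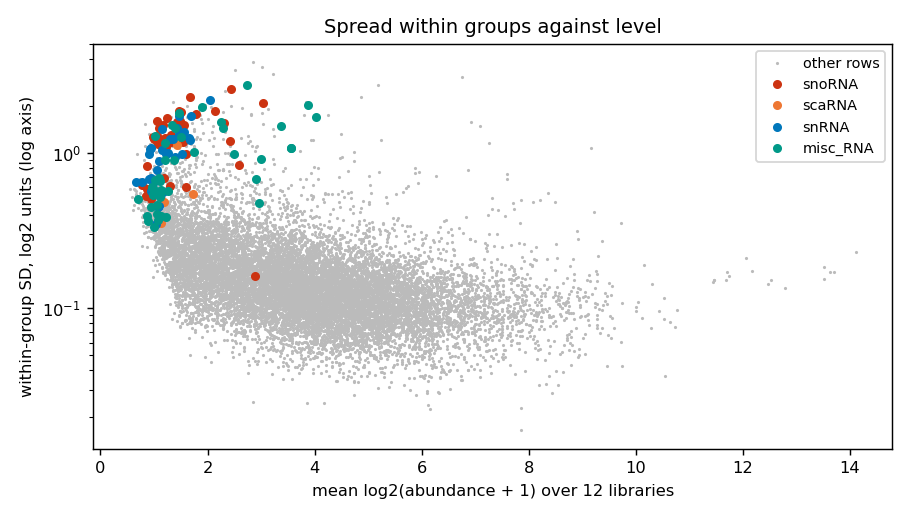
Within-group SD in log2 units (log axis) against mean log2(abundance + 1) over the 12 libraries, with 1 point per row. Members, coloured by biotype, have a median SD of 1.03 and lie above most other rows (grey, median 0.138), and Snora43 lies among the grey points at 0.16.

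Among H/ACA snoRNAs, Snora43 was even across mice and the others were not. Snora43 stood at 3.00, 2.87 and 3.03 in WT females, 2.79, 2.68 and 2.69 in AS females, 3.18, 2.92 and 3.02 in WT males and 2.63, 3.15 and 2.73 in AS males. All 12 values lay within 0.56 log2 units, and AS females lay under all WT females. Its near copy Gm22504 was above the limit only in AS female replicate 3, at 4.66. Snora64 stood at 1.13, 0.52 and 1.24 in WT females, 1.36, 5.26 and 0.17 in AS females, 4.66, 5.43 and 5.32 in WT males and 5.91, 0.15 and 5.30 in AS males. It was thus above the limit in all WT males, in no WT female and in some AS mice of each sex. Snora34, in an intron of Kansl2, stood at 4.91 and 4.97 in AS female replicates 2 and 3 and at 4.92 and 4.99 in WT male replicates 1 and 3, and at most at 1.47 in the other 8 libraries. Snora73b, in an intron of the noncoding host Snhg3, is needed for early processing of ribosomal RNA. It ranged from 0.21 to 4.06 and was above the limit in all WT females but in only 2 of 3 AS females, 2 of 3 WT males and 1 of 3 AS males. Its neighbour Snora73a in the same host, 98.0% identical over the aligned stretch, exceeded the limit only in WT female replicates 2 (1.76) and 3 (3.18). Snora70, in an exon of Rpl10, completed the highest 5 of this class, at 4.84 in WT female replicate 2, 4.67 in WT male replicate 1 and at most 1.42 elsewhere.

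The named C/D box snoRNAs, 2 rows, had 3 values above the limit, all in WT females, and no test of a difference in that share was made. Snord15b stood at 0.28, 4.29 and 4.29 in WT females, 0.28, 1.09 and 0.53 in AS females, 0.62, 0.56 and 0.67 in WT males and 0.99, 1.49 and 0.76 in AS males. WT female replicate 1 was level with the lowest AS female, so the groups overlapped. Snord22, in an exon of a transcript of Snhg1, was above the limit in WT female replicate 2 alone, at 6.28. Of the 3 predicted snoRNAs with both boxes, Gm25835 was above the limit in WT female replicate 1 (4.29) and WT male replicate 3 (4.42), Gm22486 in WT female replicate 1 (4.96) and Gm23547 in AS female replicate 3 (1.60).

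Predicted snoRNAs behaved in the same way, with 22 of 28 above the limit in 1 or 2 libraries. Gm23262, 89.3% of which lies in exons of the translation factor gene Eif4g2, was the highest of them. It stood at 3.53, 3.74 and 3.69 in WT females, 4.43, 2.75 and 3.64 in AS females, 0.51, 2.56 and 0.82 in WT males and 1.12, 2.83 and 1.54 in AS males. Females and males did not overlap in WT, and AS female replicate 2 was just under AS male replicate 2. Gm24455, in an exon of a transcript of Taf1d, stood at 5.67 to 5.79 in 4 libraries of 3 groups (WT female replicates 1 and 2, AS female replicate 2 and AS male replicate 3) and at most at 1.35 in the rest. Gm22270, in an intron of Rpl5, stood at 5.67 in WT female replicate 2 and at 5.31 and 5.60 in AS male replicates 1 and 3, against at most 1.45 elsewhere. Gm24166, 89.7% identical to Snora2b, stood at 5.25 and 5.29 in AS female replicates 2 and 3 and at most at 1.46 elsewhere. Gm24119, in an intron of the mitochondrial phosphate carrier gene Slc25a3, was lower and steadier, from 1.05 to 2.55.

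Among scaRNAs, Gm22009 in an intron of Kpna4 was the highest, from 1.10 to 2.47 and above the limit in 8 libraries. Scarna13, in Snhg10, ranged from 0.63 to 2.18, and Scarna6, in Atg16l1, from 0.58 to 2.35. Each of the 3 crossed the limit within at least 1 group.

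U1, 7SL and 7SK RNA were highest in the same 3 libraries, but 7SK RNA was nearly as high in AS female replicate 1. Rnu1a1 was at 0.24, 0.93 and 3.84 in WT females, 1.09, 1.30 and 3.10 in AS females, 1.00, 0.76 and 3.45 in WT males and 0.84, 1.09 and 0.79 in AS males. Rn7s1, a 7SL gene, was at 3.33, 3.44 and 5.78, 3.50, 3.90 and 4.32, 3.61, 2.99 and 5.05, and 3.29, 0.93 and 2.61 in the same order, and its identical copy Rn7s2 differed from it by at most 0.0014. Both were highest in replicate 3 of WT females, AS females and WT males, and no AS male was among these libraries. 7SK RNA (Rn7sk) ranged from 1.44 to 4.50, with its highest value in WT male replicate 3 and its lowest in AS male replicate 2. It was at 3.76 in AS female replicate 3 and at 3.72 in AS female replicate 1, where U1 and 7SL RNA were not raised. Across the 12 libraries Rn7s1 and Rn7sk had a Pearson's r of 0.86 (two-sided permutation p = 0.00026) and a Spearman's rho of 0.72 (permutation p = 0.0104). Without AS male replicate 2 and WT female replicate 3 r was 0.76, and with group means subtracted it was 0.89 (permutation p = 0.00012). The 2 RNAs were 1 pair chosen for this relation after their values were seen. Rnu1a1 fell into separate clusters, so no pooled r is given for it.

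The 12 U1-like rows numbered 9, 7 and 10 above the limit in these 3 libraries and 0 to 3 in the other 9, which follows from how the libraries were picked. The other 23 snRNA rows numbered 8, 10 and 2 in these 3 libraries and 0 to 9 in the rest. Over all members, 34 to 47 rows were above the limit in WT females (39.3 ± 6.81, SD, n = 3), 21 to 42 in AS females (31.0 ± 10.5), 29 to 33 in WT males (31.0 ± 2.00) and 22 to 28 in AS males (26.0 ± 3.46). The male groups did not overlap, and the female groups did. Without the U1-like rows the counts were 31 to 38 (35.0 ± 3.61), 21 to 35 (28.7 ± 7.09), 23 to 29 (27.0 ± 3.46) and 22 to 28 (25.3 ± 3.06) in the same order, and the male groups overlapped. Each library had 12652 to 12691 rows of any kind above the limit. The 12 U1-like rows include Gm22513, 99.4% identical to Rnu1a1, which was instead at 2.98 and 3.11 in WT female replicates 1 and 2 and at 3.09 in WT male replicate 3. Of other snRNA rows, Gm24265 was at 6.25, 4.67 and 4.75 in WT female replicate 3, AS female replicate 3 and WT male replicate 2, and at most at 1.54 elsewhere. Gm25556, in an exon of Strada, was at 4.23 to 4.38 in 3 libraries of 3 groups. Gm24409 was at 3.68 and 3.82 in WT female replicates 1 and 2 and at most at 1.04 elsewhere. Gm23741 ranged from 0.20 to 2.58.

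**Figure D4:**
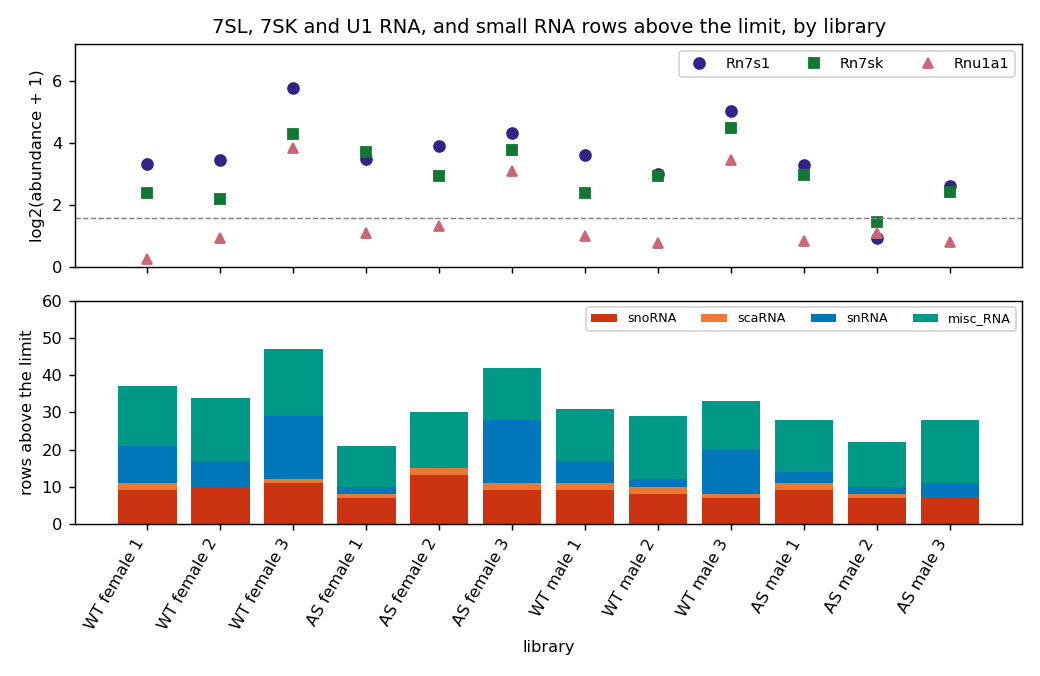
Top, log2(abundance + 1) of Rn7s1 (7SL), Rn7sk (7SK) and Rnu1a1 (U1) in each library, with the limit dashed. Bottom, number of member rows above the limit in each library by biotype, from 21 in AS female replicate 1 to 47 in WT female replicate 3. Replicate 3 of WT females, AS females and WT males stands highest in Rnu1a1, and 7 to 10 of its snRNA rows above the limit are U1-like.

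Besides 7SL and 7SK RNA, 9 misc_RNA rows were above the limit in 6 or more libraries, 4 of them in the long noncoding RNAs Tug1 and Rmst, 4 without a host and Gm25082 in Clk4. Of all 44 misc_RNA rows, 11 lay wholly in exons of another gene: 3 in Tug1, 2 in Rmst and 1 each in Miat, Neat1, Pcbp2, Pvt1, Sox2ot and Zeb2os. The Tug1 rows Gm27640, Gm27624 and Gm27517 averaged 4.02, 3.37 and 2.29. Gm27640 ranged from 1.05 to 5.59 and Gm27624 from 0.57 to 4.71, while Tug1 itself stayed between 4.75 and 5.14. Gm28030, outside any host, ranged from 0.38 to 6.49 and was above the limit in all WT females, all WT males, 2 of 3 AS females and 1 of 3 AS males. Of the other rows without a host, Gm22993 ranged from 1.56 to 3.67 (11 libraries above the limit), Gm25072 from 0.26 to 3.88 (9 libraries) and Gm22820 from 0.31 to 3.33 (8 libraries). Gm25082, partly in exons of the kinase gene Clk4, was above the limit throughout, from 1.88 to 3.59.

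Host genes were higher and far less variable than the small RNAs inside them. Of the 128 members 80 lay inside a gene on the same strand, 29 wholly and 14 partly in its exons and 37 in an intron. For 70 members the host was also a row, and the member had the larger within-group SD in all 70 pairs (median 1.18 against 0.101). The host had the higher level in 69 (median 5.12 against 1.25). Short rows that were no members also varied widely, with a median SD of 1.26 from 126 to under 150 bases. For rows of at least 1000 bases it was 0.134, so such a gap in SD is not particular to pairs of member and host. Rpl23, the host of Snora21, stood between 7.77 and 8.12 in libraries where Snora21 ran from 0.17 to 5.10, and Rps3, the host of Snord15b, between 7.60 and 7.85. Rps2, the host of Snora64, stood between 7.37 and 8.58.

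Across the 12 libraries the median Pearson's r of member and host was 0.02 (-0.66 to 0.65), with 37 of 70 positive. The unadjusted permutation p was under 0.05 in 5 pairs, and none passed after Benjamini-Hochberg adjustment over the 70 (lowest adjusted permutation p 0.597), nor did any by Spearman's rho. The median r was 0.06 in the 23 pairs with the member wholly in exons, 0.03 in the 35 intronic pairs and 0.23 in the 9 pairs whose member was above the limit in 6 or more libraries. In the remaining pairs most member values were at or under the limit, where a value did not always follow the sequence. A low median r therefore cannot show whether members follow their hosts. The highest r were those of Gm25556 with Strada (0.65), Gm22270 with Rpl5 (0.60), Gm25117 with Nap1l1 (0.58) and Gm27406 with Pcbp2 (0.58). Without the 2 libraries farthest from the host's median they were 0.52, 0.60, -0.05 and 0.17, so the last 2 rest on those libraries. The lowest were those of Gm25082 with Clk4 (-0.66), Gm24119 with Slc25a3 (-0.57), Snora21 with Rpl23 (-0.57) and Scarna6 with Atg16l1 (-0.51). Without the 2 libraries these were -0.44, -0.17, -0.36 and -0.65, so all but that of Scarna6 rest in part on those libraries. Reads from an exon shared with the host cannot be told apart by position, and how the authors' counting divided them is not given in the sources used here.

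No small RNA passed the test for a genotype difference. Of the 120 members tested, limma called 0 at an adjusted p under 0.05 in either sex, over both sexes or for the interaction, and over all 13858 genes tested the share called was 0% in each. At an unadjusted p under 0.05 there were 10 members in females (8.33%, all genes 3.16%), 5 in males (4.17%, all genes 6.42%), 6 over both sexes (5.00%, all genes 5.35%) and 9 for the interaction (7.5%, all genes 3.77%). The libraries of WT and AS did not overlap for 11 members in females (4 higher and 7 lower in AS), or 9.17% against 9.01% of all genes, and for 11 in males (4 higher and 7 lower), or 9.17% against 11.2%. The median difference of the members, AS minus WT, was -0.17 in females, -0.14 in males and -0.15 over both sexes (46 above and 74 below 0), against 0.005 for all genes. The members are not independent, since 12 rows were U1-like, 7 of them identical in sequence. Only 24.9% of all member values were above the limit. The counts above and below 0 are therefore no measure of a general change of small RNAs. The members' median SE was 0.74 within a sex, against 0.112 for all genes. In bulk tissue fewer cells of a type and less RNA per cell cannot be told apart.

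The members nearest to the threshold in males had values on both sides of the limit. Gm27905, a stretch of no host, was at 0.15, 0.28 and 1.09 in WT males and 1.94, 2.84 and 1.28 in AS males, a difference of 1.51 ± 0.41 (SE, 3 libraries per group, limma adjusted p = 0.748). The groups did not overlap, and over both sexes it differed by 1.07 ± 0.29 (limma adjusted p = 0.661). Gm27905 was above the limit in AS male replicates 1 and 2 alone. It was thus in the table through the group where it was high, so these differences are no support for a change. Snora21 was at 5.02, 0.71 and 5.10 in WT males and 0.25, 0.36 and 0.52 in AS males, which did not overlap either. Snora21 differed by -3.23 ± 0.90 and was above the limit in WT males alone, so the same holds for it. Snora34 differed by -3.19 ± 1.06, Gm28030 by -3.25 ± 1.38 and Gm22270 by 2.85 ± 1.26 in males, with limma adjusted p of 0.748 to 0.763 for these members.

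In females the smallest p belonged to a row whose values were all at or under the limit. Gm25706, a misc_RNA row of no host, was at 1.58, 1.19 and 1.18 in WT and 0.32, 0.30 and 0.87 in AS females, a difference of -0.82 ± 0.27 (limma adjusted p = 1.00). Snord15b differed by -2.32 ± 0.82 and Gm26205, in an exon of Rpl6, by -2.31 ± 0.82, with WT female replicate 1 at 5.30 as the only value of Gm26205 above the limit. Both rows were above the limit in WT females alone, so these differences are no support for a change. Scarna6, above the limit in 1 AS female alone, differed by 0.75 ± 0.28, which is no support either. Gm22513 differed by -1.80 ± 0.68. Snora43, the evenest member, was lower in AS by 0.23 over both sexes (-0.23 ± 0.09, 95% interval -0.43 to -0.03, limma adjusted p = 0.895). Gm27608, in Rmst, differed by -1.05 ± 0.44 over both sexes. It was above the limit in WT mice alone, so this difference is no support for a change.

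Sex gave no called member with all libraries fitted, WT female replicate 1 counted as a female by its label. Comparing males with females, limma called 0 of 120 members among WT mice and 0 among AS mice, against 0.0289% and 0.0361% of all genes. At an unadjusted p under 0.05 there were 9 in WT (7.5%, all genes 7.7%) and 13 in AS (10.8%, all genes 3.63%). Gm23262 was nearest, lower in males by 2.36 in WT (-2.36 ± 0.57, limma adjusted p = 0.522) and by 1.77 in AS (-1.77 ± 0.57, limma adjusted p = 1.00). Without WT female replicate 1, which has Xist at the male level, Snord15b was called for sex in WT (-3.67, limma adjusted p = 0.0002, 0.0578% of all genes called). Snord15b was above the limit only in the 2 WT females that stayed, so this call is no support for a difference. Snora64 was 4.17 ± 1.42 higher in WT males (limma adjusted p = 0.632). It was called when only the WT libraries were fitted (limma adjusted p = 0.00331, 0.0361% of all genes called). For the interaction, Snora34 had the smallest p, with AS minus WT 5.58 lower in males than in females (-5.58 ± 1.5, limma adjusted p = 0.987), followed by Gm25082 (-1.32 ± 0.47), Gm22988 (-3.02 ± 1.15), Gm22270 (4.65 ± 1.78) and Vis1 (-1.21 ± 0.48).

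Leaving out 1 library made 4 members pass. Snord15b was called in females without WT female replicate 1 (-3.66, limma adjusted p = 0.00064), the library low in Xist. Gm24409 was called in females without WT female replicate 3 (-2.84, limma adjusted p = 0.00042), and Gm24166 without AS female replicate 1 (4.28, limma adjusted p = 0.017). Snora21 was called in males without WT male replicate 2 (-4.68, limma adjusted p = 0.00027). Without the same library, Snord15b, Gm24409 and Snora21 were also called for the interaction and for sex in WT, Snord15b and Snora21 over both sexes, and Gm24166 for sex in AS. In the fits without 1 library that called these 4 members for AS against WT within a sex, 0.00722% to 0.00723% of all genes were called. In each case the library left out was the 1 of 3 in its group under the limit, and the 2 that stayed were above it, at most 0.14 apart. None of the 4 was above the limit in any other library, and every row of the table exceeded it somewhere. Each was thus in the table through the group where it was high, so these calls are no support for a difference. Leaving out the 4 libraries rich in choroid plexus transcripts leaves WT female replicate 3 alone in its group, so only effect sizes are given. In females Snora52 then differed by -4.36, Snord15b by -3.89, Vaultrc5, a vault RNA, by -3.72 and Gm25117 by -3.23. These members were above the limit in that lone library. Gm22270 differed by 4.26 in males, where AS male replicate 2, left out here, was the only AS male under the limit. WT female replicate 2, its only library above the limit outside AS males, was left out too. This size is thus no support for a difference. Without the 3 libraries high in U1 RNA, Gm24409 was called in females, for the interaction and for sex in WT. Those libraries include WT female replicate 3, and Gm24409 was above the limit in WT female replicates 1 and 2 alone. These calls are thus no support for a difference either. The shares of all genes called there were 0.00724%, 0.00724% and 0.029%.

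**Figure D5:**
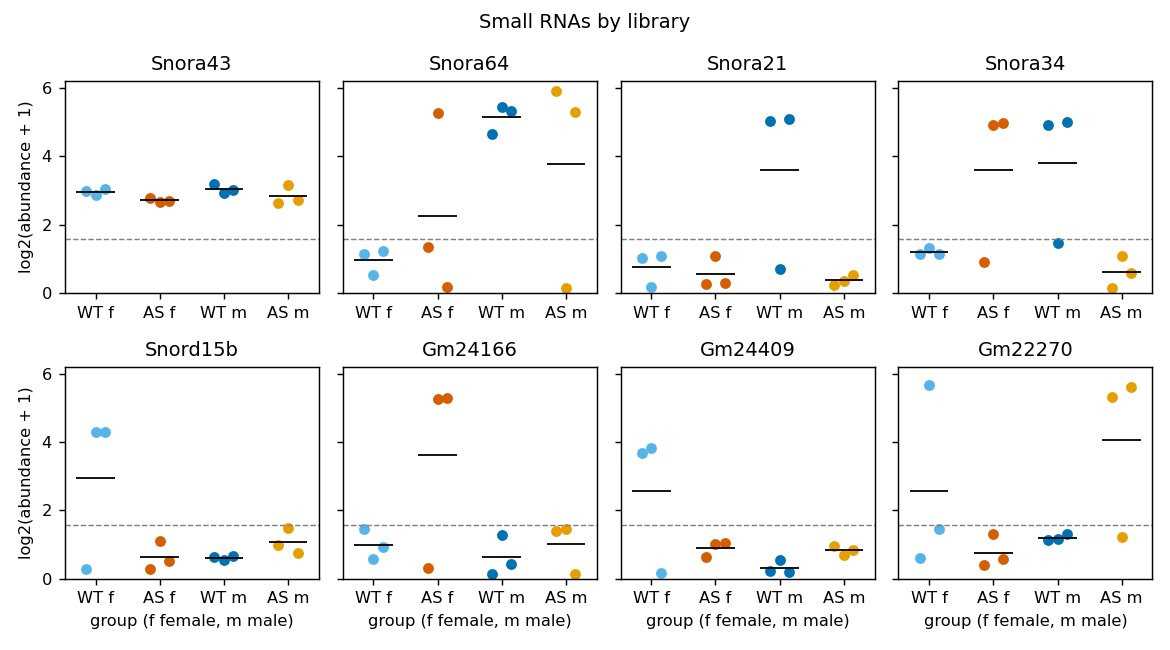
Level in log2(abundance + 1) of 8 members in the 3 libraries of each group (points) with the group mean (bar) and the limit dashed. Snora43 stays between 2.63 and 3.18, and in the other 7 the points of 1 group lie either under the limit or together well above it.

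No gene for a protein that makes, binds or trims small RNAs passed the test. In lists of such genes limma called none in any of the 6 comparisons. Over both sexes the C/D box protein list had 5 genes higher and 9 lower in AS (median -0.02), the H/ACA list 4 and 3 (0.004), the spliceosomal proteins 17 and 15 (0.02), the snRNA synthesis and assembly list 18 and 13 (0.02), the trimming and tailing list 17 and 7 (0.04), and the proteins of 7SK, 7SL, Y RNA and RNase P 12 and 12. All genes had a median of 0.005. In males the trimming and tailing list had 19 higher and 5 lower (median 0.10, all genes 0.008). The 7SK, 7SL, Y RNA and RNase P list had 18 and 6, the snRNA assembly list 21 and 10 and the spliceosomal list 21 and 11. The C/D box list had 7 and 7 in males, and the H/ACA list 2 and 5. In females these lists had 15 and 9, 10 and 14, 14 and 17, 16 and 16, 7 and 7, and 3 and 4 in the same order. Of the genes nearest to the threshold, Snu13, a core protein of C/D box particles, differed by 0.10 ± 0.04, Nop10, an H/ACA core protein, by -0.12 ± 0.06, Exosc1, of the RNA exosome, by 0.16 ± 0.06, Parn, which trims 3′ tails, by 0.14 ± 0.06 and Rpp40, of RNase P, by 0.35 ± 0.11. A list of snoRNA host genes had 4 higher and 12 lower over both sexes (median -0.13). All were listed as noncoding, but Cwf19l1, 1 of the 4 higher (0.08 ± 0.07), is annotated as protein-coding. Snhg5 was at -0.32 ± 0.08 (limma adjusted p = 0.661), Snhg20 at -0.30 ± 0.09 and Gas5 at -0.12 ± 0.07. In the same comparison choroid plexus genes had 1 higher and 25 lower (median -0.24), meningeal fibroblast genes 2 and 9 (-0.07) and oligodendrocyte genes 12 and 0 (0.15). By sex, choroid plexus genes went opposite ways, with 0 higher and 26 lower in females (-0.86) and 24 and 2 in males (0.38). The part of these cell type genes in the differences was not tested.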

How the data were processed

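The deposited table holds natural log (ln) values of abundance + 1 for 13951 Ensembl genes in 12 libraries, as read here from the values, since the authors' log base, added constant and normalization are not given in the sources used here. Trimmomatic, Bowtie2, RSEM and GRCm38 (mm10) are named, without versions or settings, in the submitters' processing notes. Whether the abundance is TPM or FPKM, and whether strand was used, is not given in the sources used here. The values look quantile-normalized over their middle range, no counts can be read from them, and depth is unknown. The plan also allowed for a count model, which these values do not permit.

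Values were divided by the natural log of 2 to give log2(abundance + 1). Biotypes, coordinates, hosts and sequences came from GENCODE M21, in which 216 rows had no entry. Tests took genes whose mean abundance was at least 1: 13858 genes and 120 of the 128 members. limma 3.58.1 (R 4.3.3, variance trend, 4 group means, 8 residual degrees of freedom) gave 6 comparisons, adjusted by Benjamini-Hochberg over all genes tested, with calls under 0.05. The script was tested on simulated data. Errors are model SEs unless marked SD. A host gene is a protein-coding or long noncoding gene on the same strand that spans the member, the shortest where several do. Member and host were correlated with two-sided permutation p (100000 resamples). Near copies were matched with BLAST 2.17.0 over at least 80% of the member.

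The members, lists and tests were chosen with earlier results of these data known. The genes named are the 5 highest per class, up to 5 smallest p per comparison, every member called on leaving out a library, the 6 most and 6 least variable, the member and host pairs at the extremes of r, and up to 4 genes per list of proteins or hosts. Others were chosen after their values were seen. Replicates are numbered by accession, so no number pairs libraries. The labels do not state that the libraries of a group came from separate animals, so p-values measure the spread between these samples. The alternatives tried are given with their values in the closing section.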

Additional observations from a re-analysis of the deposited data

How the results depend on the processing

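The count of called members was 0 in all 6 comparisons and stayed 0 with no filter, a mean abundance of at least 5, an added constant of 0.1, base 2, a robust prior, library weights, quantile normalization applied again, and values at or under the limit set to it. With only the groups compared it was 1 for sex in WT (0.0361% of all genes called) and 0 in the other 3 comparisons so fitted. Without the 4 libraries rich in choroid plexus transcripts it was not 0. A lone library was then assumed to vary like the other groups, so the counts are not given. Without the 3 libraries high in U1 and 7SL RNA, an alternative chosen after seeing the data, it was 1 in females, 1 for the interaction and 1 for sex in WT. Each was Gm24409, which was above the limit only in the WT females that stayed, so these calls are no support for a difference. The shares of all genes called there were 0.00724%, 0.00724% and 0.029%. Leaving out each library in turn gave 0 to 1 in each comparison, with 0% to 0.0578% of all genes called. The median within-group SD of 1.03 became 1.57 with a mean abundance of at least 5, 1.57 with an added constant of 0.1, 0.711 at base 2, 0.702 without the choroid plexus libraries, 0.695 with values at or under the limit set to it and 0.673 without the U1 libraries, and lay between 0.890 and 1.04 with each library left out. The median level of 1.21 became 2.27 with a mean abundance of at least 5, 0.247 with an added constant of 0.1, 0.839 at base 2 and 1.87 with values at or under the limit set to it (the last also chosen after seeing the data), and lay between 1.17 and 1.25 with each library left out. No member and host pair passed with group means subtracted, with protein-coding hosts alone or with any library left out. The cause of these shifts was not tested. No paired analysis was possible because the labels give no replicate numbers.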

Other observations

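The long noncoding RNA row Gm42418, which was chosen after its values were seen and is no small RNA by its biotype, was highest in the same 3 libraries as U1 and 7SL RNA. It stood at 7.02, 7.43 and 8.13 in WT females, 7.08, 7.53 and 7.93 in AS females, 7.11, 7.18 and 7.98 in WT males and 6.68, 6.67 and 6.96 in AS males. AS males were lowest and did not overlap with any other group.

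The 10 miRNA rows of the table resembled the small RNAs in their spread, with a median within-group SD of 1.13, and each was above the limit of 1.58 in exactly 1 library. Of all 13951 rows 500 were above the limit in exactly 1 library, and 48 of these were small RNAs.

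Gm24265, an snRNA row of 141 bases, was above the limit in 3 libraries. Read with base e, its highest abundance was 75.1 against 24.5 and 25.9 in the other 2, a ratio of 2.98. Read with base 2, the ratio was 2.22.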
